A study of Mus musculus with 5 samples.

Results

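Transforming growth factor beta (TGF-beta) is a secreted ligand that restrains the growth and effector functions of lymphocytes. The part of its pathway described here comprised 9 genes chosen by name: the ligand gene Tgfb1, the receptor genes Tgfbr1 and Tgfbr2, the signal carriers Smad2, Smad3 and Smad4, the inhibitor Smad7 and the corepressors Ski and Skil. All 9 were found by symbol among the 13004 genes of the deposited table. They were measured by RNA sequencing of natural killer (NK) cells, cytotoxic lymphocytes of the innate immune system, sorted from mouse spleen as live CD3-, NK1.1+ and DX5+ cells.

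There were 3 control libraries (replicates 1, 2 and 3) of genotype Mycf/f, which carries loxP-flanked alleles of the transcription factor gene Myc. The 2 MycKO libraries (replicates 5 and 6) had the genotype Mycdelta/delta/Ncr1Cre, in which Cre recombinase is driven by Ncr1, the gene of the NK receptor NKp46. All mice were C57BL/6 and 8 weeks old. The genotype given for the controls names no Cre, so loss of Myc and presence of the Cre allele cannot be told apart. Nothing in the labels ties a library to its own mouse, so the p-values measure only the spread among these libraries, which may be technical.

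In this pathway, TGF-beta is released from a latent complex and binds the type II receptor encoded by Tgfbr2, which then activates the type I receptor encoded by Tgfbr1. The type I receptor phosphorylates SMAD2 and SMAD3, which join SMAD4 and regulate genes in the nucleus. SMAD7 blocks the receptors, and SKI and SKIL (also called SnoN) repress SMAD-driven transcription. In NK cells the pathway is known for holding back maturation and cytotoxicity, and for driving features of type 1 innate lymphoid cells, close relatives of NK cells.

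Values are RPKM, reads divided by transcript length and by the library total, so levels of different genes can be compared per length. The reads in listed genes came to 14290690 to 17610826 in the controls, 5451728 in MycKO 5 and 13337084 in MycKO 6. Myc was at 13.0, 23.0 and 21.2 RPKM in controls 1, 2 and 3, against 12.5 and 8.70 RPKM in MycKO 5 and 6, lower in both MycKO libraries but not past the test (limma adjusted p = 0.297). The 10 NK markers summed to 12329 to 14354 RPKM in the controls, against 9707 and 11442 RPKM in MycKO 5 and 6. Gzma, the most abundant, had means of 6910 RPKM in controls and 5159 RPKM in MycKO. Of the 10 markers, 6 were lower in both MycKO libraries than in all controls, an order seen in 10.4% of all genes tested. With limma 0 passed, while 3 passed as lower in limma-voom and 4 in the authors' deposited table (27 and 65 of the 11190 genes tested). Log2 fold changes were negative for 8 of the 10 (4800 of all 11190) and positive only for Klrb1c (0.05) and Klrd1 (0.03). Ncr1 had means of 1264 RPKM in controls and 688 RPKM in MycKO (limma adjusted p = 0.143, authors' adjusted p = 0.000689). The summed markers of every other blood cell type examined except platelets were higher in both MycKO libraries than in all 3 controls. Those of macrophages and monocytes summed to 286.8 to 456.9 RPKM in controls against 1664 and 1491 RPKM. Of these 12 markers, 11 were higher in both MycKO libraries (18.8% of all genes tested) and 10 passed as higher (1.24%). B and plasma cell markers summed to 94.7 to 150.6 RPKM in controls against 369.2 and 703.7 RPKM, and red cell markers to 83.4 to 133.8 RPKM against 385.4 and 218.5 RPKM. In bulk RNA, fewer cells of a type and less RNA per cell cannot be told apart.

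None of the 9 genes differed between MycKO and control at an adjusted p under 0.05, in limma, in limma-voom on the reads behind the RPKM values or in the authors' deposited table. Among the 11190 genes tested with limma, 1.34% passed, 1.24% as higher and 0.0983% as lower in MycKO. Limma-voom called 2.09% of the same genes, and the authors' deposited test called 3.4% of 13004. At an unadjusted p under 0.05, 0 of the 9 passed limma (13.2% of all genes tested), 0 passed limma-voom (12.5%) and 1, Smad3, passed in the authors' deposited table (11.1%). The groups did not overlap for 2 of the 9, Smad3 and Tgfbr2, which is 22.2% of them against 29.1% of all genes tested. That share is no higher than the background.

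The precision of these measurements limited how large a difference could have been missed. In limma, the 95% intervals of the fold change (MycKO over control, on the log2(RPKM + 1) scale) had lower bounds of 0.631 to 0.939 and upper bounds of 1.02 to 1.56 over the 9 genes. The median absolute log2 fold change of the 9 was 0.09, against 0.20 over all genes tested and 0.15 over the 5707 tested genes with levels in the same range. All 9 genes passed the filter on low values, with mean levels above those of 40.3% (Smad2) to 91.3% (Smad3) of the genes tested. Smad2, at a mean of 8.81 RPKM, lay below the median of 12.3 RPKM over all genes tested. The plot of fold changes shows these intervals beside both other estimates.

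**Figure D1:**
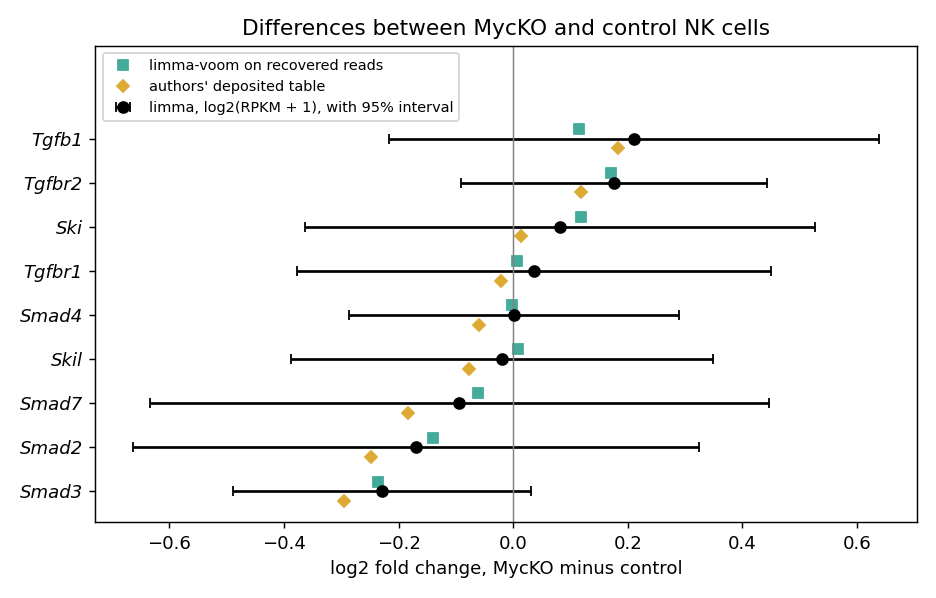
Log2 fold change of each gene (MycKO minus control, x axis). Black points and bars are limma estimates on the log2(RPKM + 1) scale with 95% intervals from 3 control and 2 MycKO libraries, squares are limma-voom estimates and diamonds are the authors' deposited log2 ratios. Every interval includes 0, and that of Smad3 reaches from -0.49 to 0.03.

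The upstream sequences of the 3 genes with the smallest p, Smad3, Tgfbr2 and Tgfb1, are given because Smad3 and Tgfbr2 are the members whose groups did not overlap, in opposite directions, and Tgfb1 is the ligand. Each run holds the 250 bases before the annotated start in RefSeq (GRCm38.p6, the assembly also called mm10), written 5′ to 3′ on the gene's own strand. The windows are chr9:63757995-63758244 (minus strand) for Smad3, chr9:116175364-116175613 (minus strand) for Tgfbr2 and chr7:25686752-25687001 (plus strand) for Tgfb1. Capitals mark matches on either strand to the E-box CACGTG known to be bound by MYC, the GC box GGGCGG and the SMAD box CAGAC.
Smad3: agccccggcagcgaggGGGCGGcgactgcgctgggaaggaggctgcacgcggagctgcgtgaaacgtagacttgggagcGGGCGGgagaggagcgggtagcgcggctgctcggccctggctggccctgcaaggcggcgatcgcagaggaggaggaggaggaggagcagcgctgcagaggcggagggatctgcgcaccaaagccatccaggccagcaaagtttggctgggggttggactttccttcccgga
Tgfbr2: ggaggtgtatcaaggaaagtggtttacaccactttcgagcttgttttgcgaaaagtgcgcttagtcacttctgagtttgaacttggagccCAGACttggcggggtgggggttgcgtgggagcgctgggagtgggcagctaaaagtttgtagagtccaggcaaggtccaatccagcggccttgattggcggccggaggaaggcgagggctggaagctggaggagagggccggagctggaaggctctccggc
Tgfb1: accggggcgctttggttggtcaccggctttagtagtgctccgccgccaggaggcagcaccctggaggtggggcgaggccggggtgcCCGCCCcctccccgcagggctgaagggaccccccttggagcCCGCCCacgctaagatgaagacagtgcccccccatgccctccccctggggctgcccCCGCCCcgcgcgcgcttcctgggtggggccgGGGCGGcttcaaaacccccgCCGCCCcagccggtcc
The E-box was found in 0 of these 3 windows and in 6.02% of the 32851 promoter windows of the same length. The GC box was found 2 times upstream of Smad3, 5 times upstream of Tgfb1 and 0 times upstream of Tgfbr2, and in 32.7% of all windows. A single SMAD box lay upstream of Tgfbr2, and 42.2% of all windows hold at least 1. The GC content was 69.2% for Smad3, 58.4% for Tgfbr2 and 75.2% for Tgfb1, against a median of 52.4% over all windows. These matches describe the letters in the windows and were not tested against expression.

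The ligand gene Tgfb1 (Entrez 21803, chromosome 7, 25687002 to 25705077, plus strand, mm10, protein-coding) was at 52.3, 54.0 and 53.5 RPKM in controls 1, 2 and 3, against 77.1 and 49.5 RPKM in MycKO 5 and 6. MycKO 5 was the highest and MycKO 6 the lowest of the 5 libraries, so the groups overlapped. The means were 53.3 ± 0.853 RPKM (SD, n = 3) and 63.3 ± 19.5 RPKM (SD, n = 2), and the log2 fold change was 0.21 (SE 0.18) at a limma adjusted p of 0.732. The higher MycKO mean came from MycKO 5 alone: without that library the log2 fold change was -0.10 with an adjusted p of 0.927, and without MycKO 6 it was 0.52 with an adjusted p of 0.299. Behind the value of MycKO 5 lay 915 reads, a counting error of 3.31%.

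Tgfb1 is known to be abundant in platelets and in myeloid cells, and markers of both were read beside it. Of the 8 platelet markers in the table, 1 was higher in both MycKO libraries than in all controls, against 18.8% of all genes tested, and none passed. They summed to 8.26, 14.5 and 8.47 RPKM in controls 1, 2 and 3, against 23.9 and 12.3 RPKM in MycKO 5 and 6. The platelet chemokine gene Pf4 was at 0, 1.83 and 0 RPKM in the controls, against 2.49 and 0 RPKM in MycKO 5 and 6. Basophil and mast cell markers (3 of 8 higher in both) summed to 5.60 to 6.51 RPKM in controls, 79.5 RPKM in MycKO 5 and 11.8 RPKM in MycKO 6, with Mcpt8 at 0 in all 3 controls. Neutrophil markers (6 of 8 higher in both) summed to 27.4 to 79.3 RPKM in controls, 575.03 RPKM in MycKO 5 and 234.2 RPKM in MycKO 6, with Mpo at 0 in all 3 controls. MycKO 5 thus had the highest sum of these 3 lists as well as the highest Tgfb1. Macrophage and monocyte markers summed to 1664 RPKM in MycKO 5 and 1491 RPKM in MycKO 6, and red cell markers to 385.4 and 218.5 RPKM. Single macrophage markers went both ways, with Lyz2 at 733.6 and 210.5 RPKM and Hmox1 at 121.9 and 293.2 RPKM in MycKO 5 and 6. The gap in Lyz2 was wider than that between the summed lists, so the higher sum of MycKO 5 depended on this gene. Mpeg1, Csf1r and Cd68 were also higher in MycKO 5, but C1qa, C1qb, C1qc, Spic and Cd14 were higher in MycKO 6. The part of other cells in the Tgfb1 value of MycKO 5 was not tested.

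**Figure D2:**
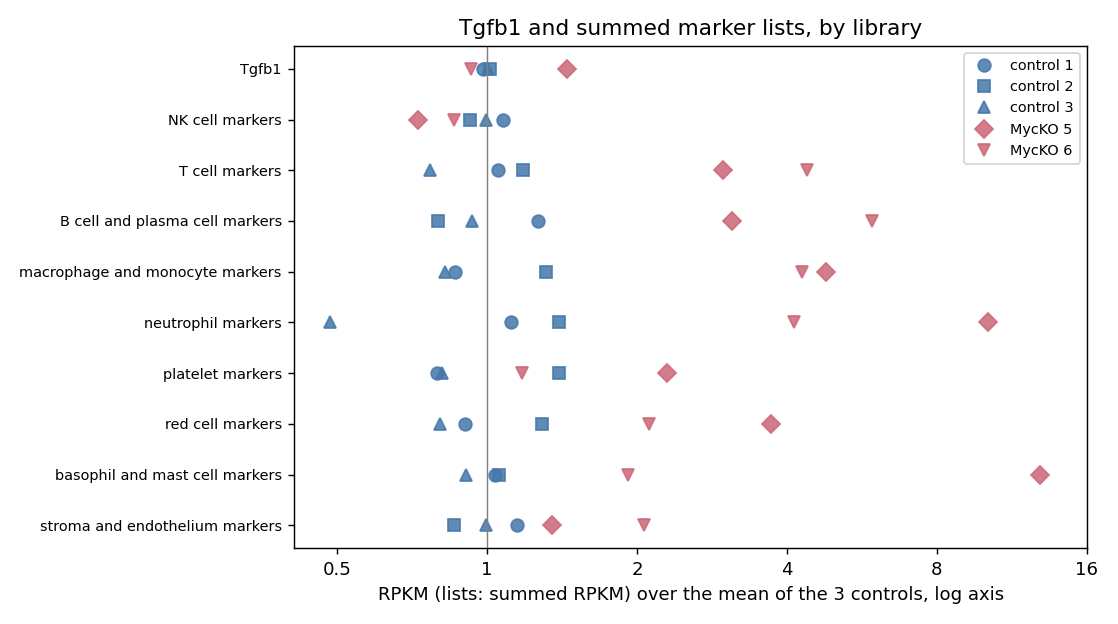
Tgfb1 (RPKM) and the summed RPKM of 9 marker lists in each of the 5 libraries, divided by the mean of the 3 controls (x axis, log scale). MycKO 5 (diamonds) is the highest library for Tgfb1 and for the macrophage, neutrophil, platelet, red cell and basophil lists. For the macrophage list that rank depends on Lyz2, at 733.6 RPKM in MycKO 5 and 210.5 RPKM in MycKO 6. MycKO 6 (inverted triangles) is the highest for the T cell, B cell and stroma lists.

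The receptor genes were both expressed, and the type II receptor gene at the higher level. Tgfbr2 (Entrez 21813, chromosome 9, 116084293 to 116175360, minus strand) was at 50.2, 46.5 and 47.1 RPKM in controls 1, 2 and 3, against 56.0 and 52.5 RPKM in MycKO 5 and 6. Both MycKO libraries lay above all 3 controls, an order seen in 18.8% of all genes tested. The means were 47.9 ± 1.95 RPKM (SD, n = 3) and 54.3 ± 2.5 RPKM (SD, n = 2), a log2 fold change of 0.18 (SE 0.11) with a limma adjusted p of 0.620. The difference kept its sign in the 10 alternatives that change the estimate and passed none of the 15.

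Tgfbr1 (Entrez 21812, chromosome 4, 47353222 to 47414931, plus strand) was at 13.9, 12.6 and 14.1 RPKM in the controls, against 15.0 and 12.9 RPKM in MycKO 5 and 6. The groups overlapped, with means of 13.5 ± 0.844 RPKM (SD, n = 3) and 13.9 ± 1.52 RPKM (SD, n = 2) and a log2 fold change of 0.04 (SE 0.18, limma adjusted p = 0.970). Its sign turned in 5 of the 10 alternatives that change the estimate, so no direction is given.

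Within each library, Tgfbr2 exceeded Tgfbr1 by 3.61, 3.70 and 3.33 times in controls 1, 2 and 3 and by 3.73 and 4.08 times in MycKO 5 and 6. The log2 of this ratio was 1.83 ± 0.0791 (SD, n = 3) in controls and 1.97 ± 0.0912 (SD, n = 2) in MycKO, and the groups did not overlap. The exact two-sided permutation test gave p = 0.2, which is the smallest value that 3 against 2 libraries allow, and 0.8 after adjustment over the 4 ratios examined. The log2 difference of 0.14 was 0.075 without MycKO 6 and 0.095 without control 3.

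Smad3 (Entrez 17127, chromosome 9, 63646767 to 63757994, minus strand), a receptor-activated SMAD that binds DNA directly, was the most abundant of the 9 by mean level and the member with the smallest p. It was at 80.2, 76.1 and 70.6 RPKM in controls 1, 2 and 3, against 65.4 and 63.2 RPKM in MycKO 5 and 6. Both MycKO libraries lay below all 3 controls, an order seen in 10.4% of all genes tested. The means were 75.6 ± 4.85 RPKM (SD, n = 3) and 64.3 ± 1.55 RPKM (SD, n = 2). The log2 fold change was -0.23 (SE 0.11), with an unadjusted limma p of 0.0757 and an adjusted p of 0.449. In the authors' deposited table the log2 ratio was -0.30, with an unadjusted p of 0.0445 and an adjusted p of 0.422. Smad3 kept this sign in the 10 alternatives that change the estimate, at -0.19 to -0.30, and passed none of the 15.

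Smad2 (Entrez 17126), its close relative, was the least abundant of the 9, at 9.90, 8.24 and 9.66 RPKM in the controls, against 7.52 and 8.71 RPKM in MycKO 5 and 6. MycKO 5 was the lowest library, but MycKO 6 lay above control 2. The limma adjusted p was 0.840 for a log2 fold change of -0.17 (SE 0.21), and 1 library moved it by over 1.5 times: it was -0.076 without MycKO 5 and -0.26 without MycKO 6. Smad3 transcripts exceeded those of Smad2 by 8.10, 9.24 and 7.31 times in controls 1, 2 and 3 and by 8.69 and 7.25 times in MycKO 5 and 6. This ratio did not separate the groups (log2 difference -0.043, exact permutation p = 0.8).

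Smad4 (Entrez 17128), which encodes the shared partner of all receptor-activated SMADs, was at 34.0, 37.5 and 34.9 RPKM in the controls, against 35.8 and 35.2 RPKM in MycKO 5 and 6. Both MycKO values fell inside the range of the controls. The means were 35.5 ± 1.81 RPKM (SD, n = 3) and 35.5 ± 0.422 RPKM (SD, n = 2), and the 95% interval of the fold change ran from 0.820 to 1.22. Smad2, Smad4 and Smad7 lie on chromosome 18.

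Smad7 (Entrez 17131), the inhibitory SMAD and itself a known target of the pathway, varied more between control libraries than any other of the 9. It was at 18.4, 14.2 and 11.3 RPKM in controls 1, 2 and 3, against 12.5 and 14.3 RPKM in MycKO 5 and 6. Both MycKO libraries lay within the control range. The means were 14.6 ± 3.6 RPKM (SD, n = 3) and 13.4 ± 1.29 RPKM (SD, n = 2), and the log2 fold change was -0.09 (SE 0.23) at a limma adjusted p of 0.934. Relative to Smad3 in the same library, Smad7 stood at 0.230, 0.186 and 0.160 in controls 1, 2 and 3, against 0.191 and 0.227 in MycKO 5 and 6. This ratio also overlapped between groups (exact permutation p = 0.6).

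The corepressor gene Ski (Entrez 20481, chromosome 4, 155154075 to 155222592, minus strand) was at 25.5, 21.8 and 17.5 RPKM in controls 1, 2 and 3, against 21.2 and 24.3 RPKM in MycKO 5 and 6. Here too the MycKO libraries lay within the range of the controls, with means of 21.6 ± 3.99 RPKM (SD, n = 3) and 22.7 ± 2.23 RPKM (SD, n = 2) and a limma adjusted p of 0.930. Ski and Smad7 put the 5 libraries in the same order, with control 1 highest and control 3 lowest for both.

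Skil (Entrez 20482, chromosome 3, 31095058 to 31122577, plus strand), the related corepressor gene and another known SMAD target, was at 16.9, 16.6 and 16.8 RPKM in the controls, against 15.6 and 17.5 RPKM in MycKO 5 and 6. One MycKO library lay below and the other above all controls. The log2 fold change was -0.02 (SE 0.16, limma adjusted p = 0.982), and the 95% interval of the fold change ran from 0.764 to 1.27. The ratio of Skil to Ski was 0.663, 0.762 and 0.958 in controls 1, 2 and 3, against 0.737 and 0.721 in MycKO 5 and 6, and did not separate the groups (exact permutation p = 0.8).

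**Figure D3:**
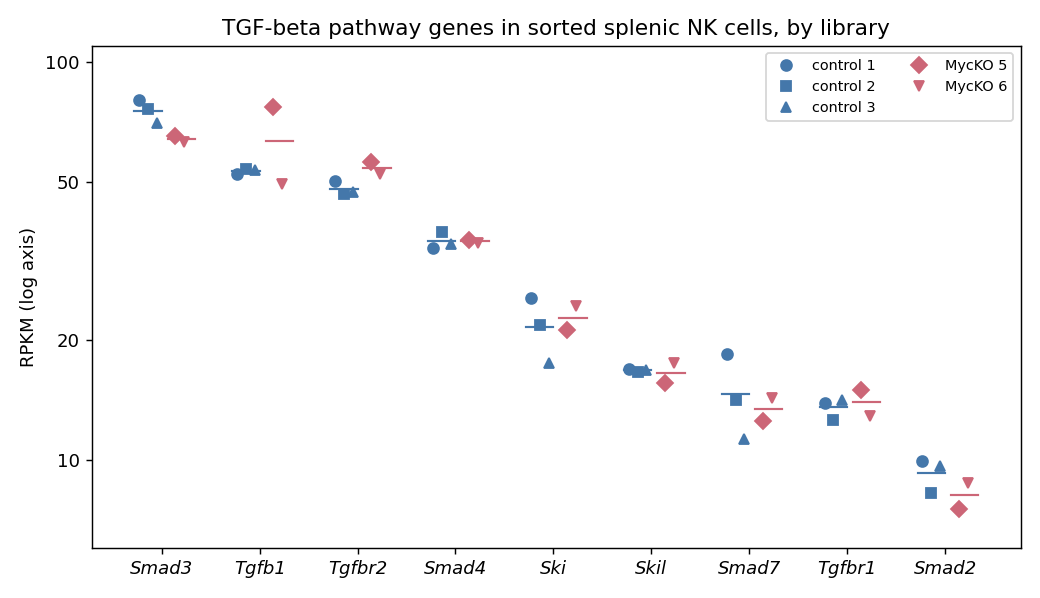
RPKM (y axis, log scale) of each gene in each of the 5 libraries, with a short line at each group's mean, ordered by mean level. Only Smad3 (MycKO lower) and Tgfbr2 (MycKO higher) have groups that do not overlap, and Tgfb1 of MycKO 5 stands apart at 77.1 RPKM.

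By mean RPKM over the 5 libraries, the order of levels was Smad3 (71.1), Tgfb1 (57.3), Tgfbr2 (50.5), Smad4 (35.5), Ski (22.1), Skil (16.7), Smad7 (14.1), Tgfbr1 (13.7) and Smad2 (8.81). Tgfbr2 exceeded Smad4, Smad4 exceeded Ski, and Tgfbr1 exceeded Smad2, in 5 of 5 libraries and with ranges that did not overlap. Smad7 and Tgfbr1 could not be ordered, since Smad7 was higher in 3 of 5 libraries. Skil exceeded Smad7 in 4 of 5 libraries, the exception being control 1. In the controls Smad3, Tgfb1 and Tgfbr2 were cleanly ordered, but MycKO 5 had more Tgfb1 than Smad3 and MycKO 6 had more Tgfbr2 than Tgfb1.

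The spread between control libraries differed widely among the 9 genes. The SD was 24.6% of the mean for Smad7 and 18.5% for Ski, but 1.6% for Tgfb1 and 0.844% for Skil. Counting error alone, in control 1, came to 2.85% for Smad7, 2.18% for Ski, 2.42% for Tgfb1 and 2.14% for Skil. The variance of the control reads was 58.04 times the counting variance for Smad7 and 58.8 times for Ski, against a median of 18.3 times over all genes tested. For Skil it was 0.168 times and for Tgfb1 0.47 times, so the controls varied no more than counting error would give. Counting errors do not include the loss or copying of molecules during library preparation.

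**Figure D4:**
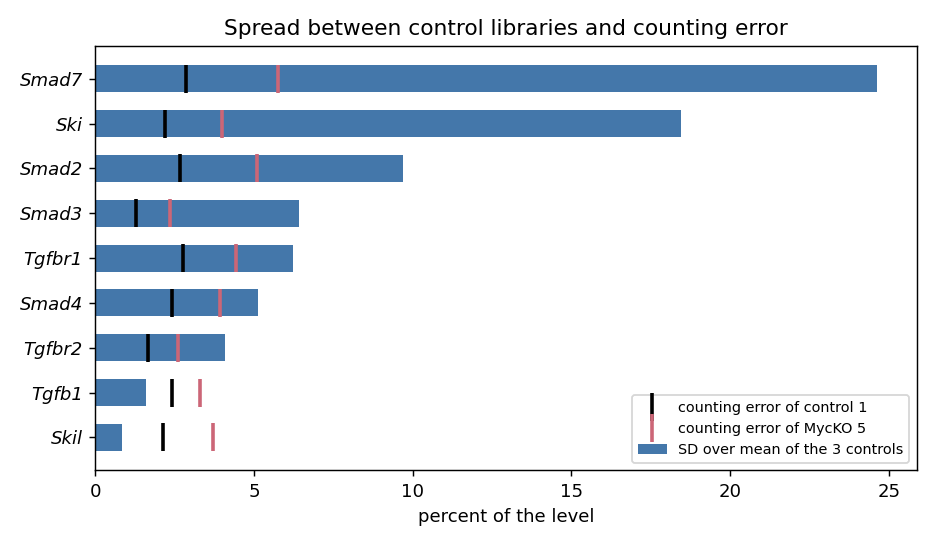
SD of the 3 control libraries as a percent of their mean (bars), with the counting error of a single value in control 1 (black ticks) and in MycKO 5, the shallowest library (red ticks). Smad7 and Ski vary by 24.6% and 18.5%, far above counting error, and Skil by 0.844%, below it.

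Smad3 was compared with all other genes tested for the likeness of its profile over the 5 libraries, by Euclidean distance between centred log2(RPKM + 1) values. Among the nearest were the phospholipase gene Pld2 (distance 0.046) and the adhesion protein gene Vcl (0.054), against a median distance of 0.61 over 11189 genes. Vcl was at 17.2, 16.7 and 15.2 RPKM in controls 1, 2 and 3, against 14.6 and 13.8 RPKM in MycKO 5 and 6. These genes were picked for their small distances, so lying below the median was fixed by that choice. Nothing was tested on these profiles.

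The rest of the pathway was read from 10 lists of named genes, which were chosen with earlier results of these data known. Besides the 9 genes they held 139 genes, of which 116 were in the table and 100 passed the filter on low values. None of the 100 rose and 3 fell (Klrg1, S1pr5 and Itgam) at a limma adjusted p under 0.05. At an unadjusted p under 0.05 there were 27, against 13.2% of all genes tested. All 3 falls belonged to a single list, described last. The number that passed was 0 without control 1, control 3 or MycKO 5, 4 without control 2 and 2 without MycKO 6, all of them lower in MycKO. Over all genes tested the same omissions gave 39, 35, 34, 217 and 54 calls, against 150 with all libraries.

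Among genes for ligands, storage and activation of TGF-beta, 6 of 14 could be tested with limma and 0 passed. The median log2 fold change was 0.17 against 0.05 over all genes tested. Thbs1, too low to be tested with limma, passed in the authors' deposited table (log2 ratio 8.88, adjusted p = 0.00448), which called 3.4% of 13004 genes. Fewer than 2 libraries reached 1 RPKM for Thbs1, so that ratio is one of low values. Tgfb3, which encodes another isoform of the ligand, was at 5.65, 4.71 and 4.34 RPKM in the controls, against 3.95 and 3.43 RPKM in MycKO 5 and 6. Nrros, whose product holds latent TGF-beta on the surface of myeloid cells, was at 13.9, 15.6 and 14.4 RPKM against 21.5 and 17.6 RPKM, and did not pass (limma adjusted p = 0.394). The integrin genes Itgav (0.25) and Itgb6 (1.11), whose products help to activate latent TGF-beta, were also higher in both MycKO libraries without passing, Itgb6 at no more than 3.29 RPKM. Of the 6, 3 were higher in both MycKO libraries than in all controls (18.8% of all genes tested) and 1 was lower (10.4%). The macrophage and monocyte markers were higher in the same libraries (1664 and 1491 RPKM summed, against at most 456.9), and their part in the values of Nrros and Itgav was not tested.

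Among co-receptors and other type I and II receptors, 6 of 13 could be tested, 0 passed, and all 6 had positive log2 fold changes with a median of 0.40, where 6390 of all 11190 were positive. The activin receptor gene Acvr2b, too low to be tested with limma, was at 0 RPKM in all 3 controls, against 0.535 and 0.287 RPKM in MycKO 5 and 6, and passed in the authors' deposited table with an adjusted p of 0.00556. Levels were low: Bmpr2, a receptor for bone morphogenetic proteins, was at 3.38, 2.53 and 2.45 RPKM in controls, against 4.05 and 6.04 RPKM in MycKO 5 and 6 (log2 fold change 0.66, limma adjusted p = 0.418). Acvrl1 (0.93) and Acvr1 (0.57), type I receptor genes, reached at most 2.29 RPKM in any library. Of the SMADs of the bone morphogenetic protein branch, Smad1 ranged from 4.51 RPKM in MycKO 5 to 13.2 RPKM in MycKO 6, with the 3 controls between, and Smad5 from 7.74 to 12.2 RPKM. Neither passed.

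Genes for the turnover and traffic of receptors and SMADs were balanced in direction, with 10 of 19 tested members positive and 9 negative, a median of 0.00013 and 0 past the test. The member with the smallest p was Stub1, a ubiquitin ligase gene, at 16.4, 15.3 and 19.9 RPKM in controls, against 10.1 and 12.0 RPKM in MycKO 5 and 6 (log2 fold change -0.60, limma adjusted p = 0.230). Zfyve9 (1.097), which encodes the SMAD anchor SARA, and the deubiquitinase gene Usp4 (-0.27) followed. Nuclear partners and corepressors were likewise balanced, with 7 positive and 8 negative of 15 tested and a median of -0.006. Their smallest p-values belonged to the lymphocyte transcription factor gene Runx3, at 80.4, 82.4 and 72.3 RPKM against 62.1 and 60.2 RPKM (limma adjusted p = 0.227), to Zeb2 (-0.40) and to the histone deacetylase gene Hdac1 (-0.17). Runx3, Zeb2 and Hdac1 were lower in both MycKO libraries than in all controls, without passing. Of the 15, 4 were lower in this way (10.4% of all genes tested) and 3 were higher in both MycKO libraries (18.8%).

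In the non-SMAD branch, the kinase route that TGF-beta receptors also feed, 0 of 13 tested members passed and the median was 0.15. Tab2, an adaptor of the TAK1 kinase, was at 103.4, 91.03 and 104.7 RPKM in the controls, against 119.8 and 136.1 RPKM in MycKO 5 and 6 (log2 fold change 0.36, limma adjusted p = 0.241). Tab1 (0.66) and the p38 kinase gene Mapk14 (0.24) were also higher in both MycKO libraries without passing. Of the 13, 3 were higher in both MycKO libraries than in all controls (18.8% of all genes tested) and 1 was lower (10.4%). Map3k7, which encodes TAK1 itself, lay at -0.06.

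Reported target genes of SMADs gave no limma call among 17 tested, 13 of them positive, with a median of 0.31. The extracellular matrix gene Tgfbi was at 3.97, 12.7 and 4.34 RPKM in controls 1, 2 and 3, against 37.6 and 14.1 RPKM in MycKO 5 and 6. Its log2 fold change was 1.76 with a limma adjusted p of 0.205. It passed in the authors' deposited table, with a log2 ratio of 1.82 and an adjusted p of 0.00966. The cell cycle inhibitor gene Cdkn1a (1.21) and the transcription factor gene Klf10 (0.27) were higher in both MycKO libraries without passing. Of the 17, 4 were higher in both MycKO libraries than in all controls (18.8% of all genes tested) and 0 were lower (10.4%). Id2, a transcription regulator that NK cells need, was at 588.2 to 866.1 RPKM in controls, against 783.9 and 821.8 RPKM in MycKO 5 and 6. Tgfbi is known to be made by macrophages, whose markers were higher in the same libraries, and their part in its value was not tested.

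Genes that TGF-beta is known to raise in NK cells or other innate lymphoid cells were all on the higher side. Of 12 listed, 11 were tested, 11 had positive log2 fold changes with a median of 0.76, and 10 had groups that did not overlap, against 18.8% of all genes tested in this direction. With limma 0 passed and 9 reached an unadjusted p under 0.05, against 13.2% of all genes tested. The list was chosen with earlier results of these data known, so its direction is not independent evidence about TGF-beta. Gpr183 and Inpp4b passed in limma-voom, and in the authors' deposited table these 2 and the chemokine receptor gene Cxcr6 passed. Cxcr6 was at 1.68, 4.62 and 0.961 RPKM in controls, against 6.29 and 20.5 RPKM in MycKO 5 and 6 (log2 fold change 2.02, limma adjusted p = 0.178), with an adjusted p of 0.0282 in the authors' deposited table. Gpr183, a chemotactic receptor gene, was at 1.38, 0.753 and 2.28 RPKM in controls, against 6.91 and 6.39 RPKM in MycKO 5 and 6 (log2 fold change 1.68, limma adjusted p = 0.0806, limma-voom adjusted p = 0.0499). The phosphatase gene Inpp4b was at 0.519, 0.654 and 0.889 RPKM against 3.52 and 4.52 RPKM (1.57, limma adjusted p = 0.0831, limma-voom adjusted p = 0.00368). Lag3, an inhibitory receptor gene, was at 4.71, 4.42 and 4.51 RPKM against 12.0 and 7.89 RPKM (0.95, limma adjusted p = 0.158).

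T cells are known to express several of these genes. The 9 T cell markers in the table summed to 35.2 to 54.2 RPKM in the controls, against 136.1 and 201.1 RPKM in MycKO 5 and 6. Of these markers, 7 were higher in both MycKO libraries than in all controls (18.8% of all genes tested) and 3 passed as higher (1.24%). Cd3g, a gene of the T cell receptor complex, rose to 68.9 ± 9.83 RPKM (SD, n = 2) from 11.3 ± 3.09 RPKM (SD, n = 3), and Cd3e to 25.9 ± 17.4 RPKM from 2.45 ± 0.948 RPKM, although the sort excluded cells with surface CD3. No T cell marker in the table was at 0 in all controls. The part of T cells in the values of Cxcr6, Gpr183, Inpp4b and Lag3 was not tested.

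Genes that TGF-beta is known to lower in NK cells were mostly on the lower side. Of 13 tested, 11 had negative log2 fold changes, 3 fell past the test and the median was -0.40. Over all 11190 genes tested 4800 were negative, the median was 0.05 and 0.0983% passed as lower. Klrg1, an inhibitory receptor gene of mature NK cells, fell from 145.2, 163.5 and 114.9 RPKM in controls 1, 2 and 3 to 43.5 and 67.2 RPKM in MycKO 5 and 6 (log2 fold change -1.35, limma adjusted p = 0.034). S1pr5, a receptor gene needed for NK cells to leave lymph nodes and marrow, fell to 93.9 and 123.9 RPKM from 181.3 to 211.99 RPKM (log2 fold change -0.86, limma adjusted p = 0.0387). Itgam, the gene of CD11b, fell to 105.9 and 122.1 RPKM from 171.3 to 192.9 RPKM (log2 fold change -0.69, limma adjusted p = 0.0387). All 3 calls were lost without control 1, control 3 or MycKO 5, settings in which calls over all genes also dropped (39, 35 and 34, from 150), and with a pseudocount of 0.1 (80 over all genes) or without the variance trend (148). That of Itgam was lost without control 2 or MycKO 6 as well. With all libraries, Klrg1, S1pr5 and Itgam also passed in limma-voom (adjusted p = 0.0137, 0.00862 and 0.00583) and in the authors' deposited table. Prf1 and Tbx21 of this list passed as lower in both as well, and Ncr1 in the authors' deposited table. Over the 11190 genes tested, limma-voom called 27 as lower and the authors' deposited test 65. Gzmb (0.27) and Cd226 (0.81) went the other way without passing.

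That list repeats genes of NK cell maturation already known to be lower in these libraries, so its direction is not independent evidence about TGF-beta. Ncr1, Klrk1, Eomes, Tbx21 and Prf1 are also among the NK markers, whose sum was lower in both MycKO libraries. The plot of the lists sets all of them beside the 9 genes.

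**Figure D5:**
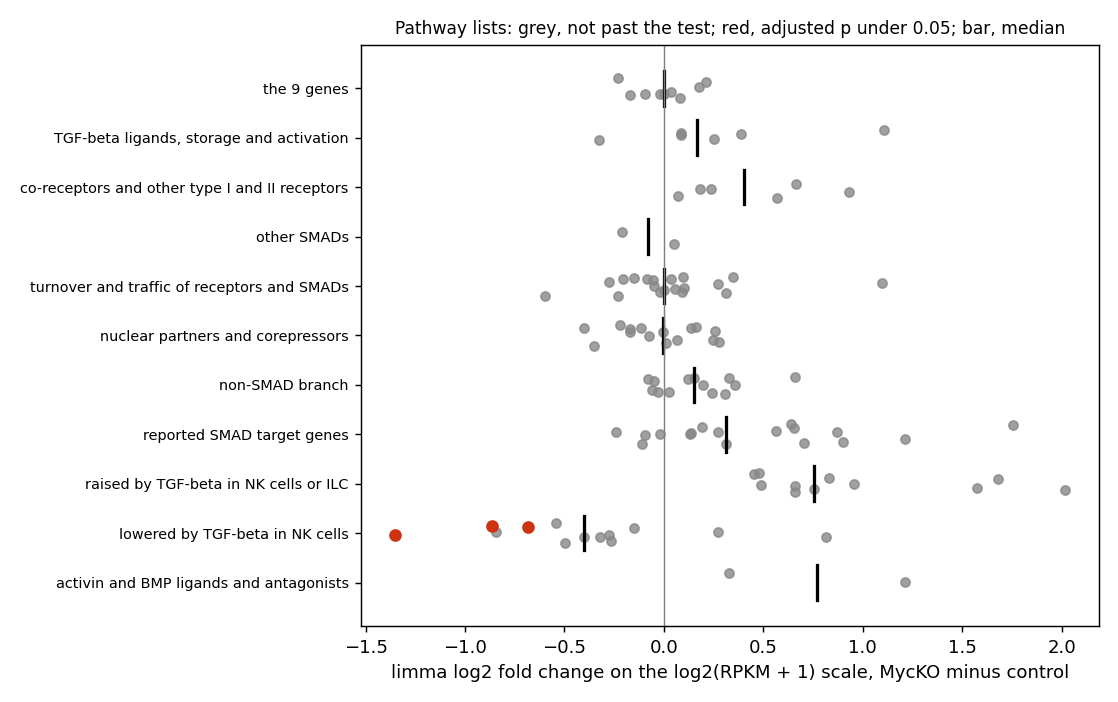
Limma log2 fold change (MycKO minus control, log2(RPKM + 1) scale) of every tested gene in the 9-gene set and 10 related lists, with black bars at the medians. Red points passed at an adjusted p under 0.05 (Klrg1, S1pr5 and Itgam only), and the 9 genes span -0.23 to 0.21.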

How the data were processed

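The samples were 3 control and 2 MycKO RNA libraries of NK cells sorted from spleen. Per the submitters' processing notes, TopHat and edgeR were used, without a stated role, on the mm10 build. Not given in the sources used here are the annotation, the way reads were counted and whether strand was used. The authors deposited a table of 13004 genes with an RPKM value per library and, per the file headers, mean normalized signal per group, a ratio (fold change), its log2 value and p-values with adjusted p-values from a test the header does not name. The unit RPKM was taken from the values.

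The table was fitted whole. A gene was kept if 2 or more libraries reached 1 RPKM (11190 genes), and log2(RPKM + 1) was tested with limma 3.58.1 in R 4.3.3 (2 groups, variance trend, two-sided, Benjamini-Hochberg over all genes tested, threshold 0.05). Low genes change less on that scale than in RPKM. Reads were recovered from RPKM values and the authors' group means, and 100% of values came out whole within 0.001 of a read. They gave depths, counting errors and limma-voom. Ratios between members were compared by exact two-sided permutation tests, where 3 against 2 libraries cannot go below 0.2. The procedure was tested on simulated data.

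The 9 genes and all lists were chosen with earlier results of these data known. In each list the text names genes that passed and the 3 with the smallest p, and others it names were chosen after their values were seen. Of the 3 genes with profiles nearest to Smad3, the closest is not reported here. Marker lists were T cell, B cell, macrophage, neutrophil, platelet, red cell, basophil, stroma and NK. Coordinates are from GENCODE vM21 (mm10) and upstream sequences from RefSeq (GRCm38.p6), which held windows for 5 of the 9 genes. Alternatives were 2 other scalings, no filter on low values, a filter of 5 RPKM, a pseudocount of 0.1, leaving out each library, limma-voom, limma without the trend, the authors' adjusted p-values, and thresholds of 0.01 and 0.1. Figures were drawn with matplotlib 3.10.9.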

Additional observations from a re-analysis of the deposited data

How the results depend on the processing

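The count of 0 among the 9 genes was the same under all 15 alternatives, and the smallest adjusted p of any of them was 0.299, for Tgfb1 without MycKO 6. Filters, the trend and thresholds leave a gene's estimate as it is, and of the 90 values from the other 10 alternatives 18 had the opposite sign, from 6 genes and none larger than 0.10 in size. Tgfbr1 (0.037 with all libraries) was at -0.013 with median-of-ratios scaling, -0.0042 with upper-quartile scaling and -0.022 in the authors' deposited table. Smad4 (0.0016) was at -0.051, -0.041 and -0.060 in the same 3, and at -0.0024 in limma-voom, where Skil (-0.02) was at 0.0089. Leaving out each library gave -0.10 to 0.52 for Tgfb1, -0.067 to 0.14 for Tgfbr1, -0.027 to 0.041 for Smad4, -0.26 to 0.076 for Smad7, -0.055 to 0.20 for Ski and -0.10 to 0.060 for Skil. Smad2 ranged from -0.26 to -0.076. Leaving out libraries gave log2 differences of 0.075 to 0.20 for the ratio of Tgfbr2 to Tgfbr1, 0.0095 to 0.27 for that of Smad7 to Smad3, -0.17 to 0.088 for that of Smad3 to Smad2 and -0.23 to 0.036 for that of Skil to Ski. Of the genes in the related lists, 3 passed with all libraries, 0 to 4 without each library, 0 with a pseudocount of 0.1, 1 without the trend (Inpp4b, higher), 7 in limma-voom (2 higher and 5 lower), 12 in the authors' deposited table (6 higher and 6 lower), 0 at a threshold of 0.01 and 6 at 0.1 (2 higher and 4 lower). The cause of these moves was not tested. No paired analysis was possible because the groups share no replicate number. The 303 reads of Smad7 in MycKO 5 were the fewest behind any value of the 9 genes, a counting error of 5.74%.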

Other observations

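The activin and bone morphogenetic protein ligands, which use related receptors, were mostly low or not listed in the table. Of 15 listed ligands and antagonists, 5 were in the table and 2 passed the filter on low values. Gdf11, a ligand of activin-type receptors, was at 4.68, 5.002 and 6.15 RPKM in controls 1, 2 and 3, against 7.04 and 6.65 RPKM in MycKO 5 and 6, higher in both MycKO libraries without passing (log2 fold change 0.33, limma adjusted p = 0.682). Bmp7, a bone morphogenetic protein gene, was at 0, 0 and 0.286 RPKM against 1.15 and 1.96 RPKM (limma adjusted p = 0.254). An order with both MycKO libraries above all controls was seen in 18.8% of all genes tested.

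Among markers of other cells, the most abundant were Lyz2 for macrophages and monocytes, Jchain for B and plasma cells, S100a8 for neutrophils and Car2 for red cells. The T cell factor gene Lef1, which is also known in immature NK cells, was at 23.8, 21.2 and 20.5 RPKM in the controls, against 14.8 and 23.1 RPKM in MycKO 5 and 6, unlike Cd3g, which was higher in both MycKO libraries. Mcpt8, a basophil protease gene, was at 0 RPKM in all 3 controls, against 27.3 and 3.76 RPKM in MycKO 5 and 6. Stroma and endothelium markers, 5 of 10 in the table, summed to 24.5 to 32.8 RPKM in controls, against 38.5 and 58.9 RPKM in MycKO 5 and 6. Most of it came from Pecam1, at 22.8 to 28.3 RPKM in controls, against 38.0 and 54.9 RPKM. The other markers of this list reached at most 2.98 RPKM in any library (Col1a2 in MycKO 6).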
